A study of Mus musculus with 20 samples.

Results

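The 10 genes described here encode the transcription factor ATF4 and enzymes and regulators linked to it: Atf4, Ddit3, Trib3, Asns, Phgdh, Psat1, Shmt2, Mthfd2, Cth and Cbs. They were chosen by name as a pathway, with earlier results of these data known but with no measured value in the rule, and they are 10 of the 26830 genes that had a count in at least a single fetus. All 10 passed the filter on low counts and are among the 17573 genes tested. Their RNA was measured in the right liver lobe of male CD-1 IGS mouse fetuses at embryonic day 18.5, shortly before birth, by sequencing of polyadenylated RNA. MNR fetuses came from dams under maternal nutrient restriction (MNR) and control fetuses from control dams, with 5 litters in each group and 2 littermates sequenced per litter. The sources used here do not give the degree and timing of the restriction. Since dams and not fetuses were fed the diets, the litter was the replicate, and counts of littermates were summed.

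ATF4 is made when a kinase of the integrated stress response phosphorylates the translation factor eIF2, for example when amino acids run short, which favours translation of the Atf4 mRNA while most other translation declines. Atf4 mRNA is therefore only part of what sets ATF4 activity. ATF4 binds DNA together with C/EBP proteins and raises transcription of genes for amino acid synthesis, uptake and tRNA charging. Serine synthesis branches off glycolysis at PHGDH, serine feeds the folate pathway through SHMT2 and MTHFD2 in mitochondria, and serine also joins homocysteine in transsulfuration, where CBS and CTH make cysteine. The liver carries out much of the transsulfuration of the body.

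Counts per fetus totalled 16703824 to 28016953 in MNR and 14925778 to 27848100 in control livers. Over all genes, edgeR's quasi-likelihood test called 117 at a Benjamini-Hochberg adjusted p of 0.05 (0.666% of genes tested), 73 higher and 44 lower in MNR litters. Leaving out MNR litter B or E, or else control litter A, C or E, gave 0 (2818 to 3102 genes at an unadjusted p under 0.05 in edgeR), and 843 without control litter B. The hepatocyte markers summed to 148681 to 163689 CPM (counts scaled to a common library total) in MNR litters and 152887 to 167131 in control litters, and include the albumin and apolipoprotein genes that define the cell type. Of 11 tested, 8 had a positive and 3 a negative log2 fold change. The highest was that of Tat, at 0.96, whose level varied widely (151 ± 117 CPM in MNR and 77.9 ± 48.5 CPM in control litters). The erythroid markers summed to 36701 to 47047 CPM in MNR and 33750 to 55190 CPM in control litters of this blood-forming organ, and 11 of 11 tested had a negative log2 fold change. The neutrophil precursor markers summed to 2568 to 3472 CPM in MNR and 2330 to 2566 CPM in control litters, with 9 of 9 positive log2 fold changes. The cycling cell markers summed to 1434 to 1677 CPM in MNR and 1375 to 2052 CPM in control litters, with 12 of 12 negative. By edgeR 0 markers of these 4 lists passed. At an unadjusted p under 0.05, 6 neutrophil markers were higher, 1 hepatocyte and 1 cycling marker were lower, and DESeq2 called 2 neutrophil and 1 hepatocyte markers and limma-voom 1 hepatocyte marker. All matched markers reached 0.1 CPM in at least a single fetus. Pancreatic exocrine markers summed to 28.5 to 161 CPM in MNR and 18.6 to 336 CPM in control litters, with 643.9 CPM in a single fetus of control litter B. In bulk tissue, fewer cells of a type and less RNA per cell cannot be told apart.

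None of the 10 genes passed the threshold in MNR against control litters, against 0.666% of all genes (0.415% higher and 0.25% lower in MNR litters). At an unadjusted p under 0.05, 1 was higher and 3 were lower in MNR litters, 4 in all, against 9.95%, 9.69% and 19.6% of all genes. Litters of the groups did not overlap in 1 of the 10, Cth, with MNR above, against 4.5% of all genes, 2.28% with all MNR litters above and 2.23% with all below. DESeq2 called 1 of the 10, against 6.62% of all genes in that tool, and limma-voom with the litter as a random effect called 3, against 6.17%. The median log2 fold change of the 10 was -0.07, beside -0.00271 over all genes, with 3 positive and 7 negative. The largest value in either direction was that of Cth, at the end of the transsulfuration pathway, followed by a positive but widely spread value in Trib3 and negative values in Mthfd2, Phgdh and Atf4.

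**Figure D1:**
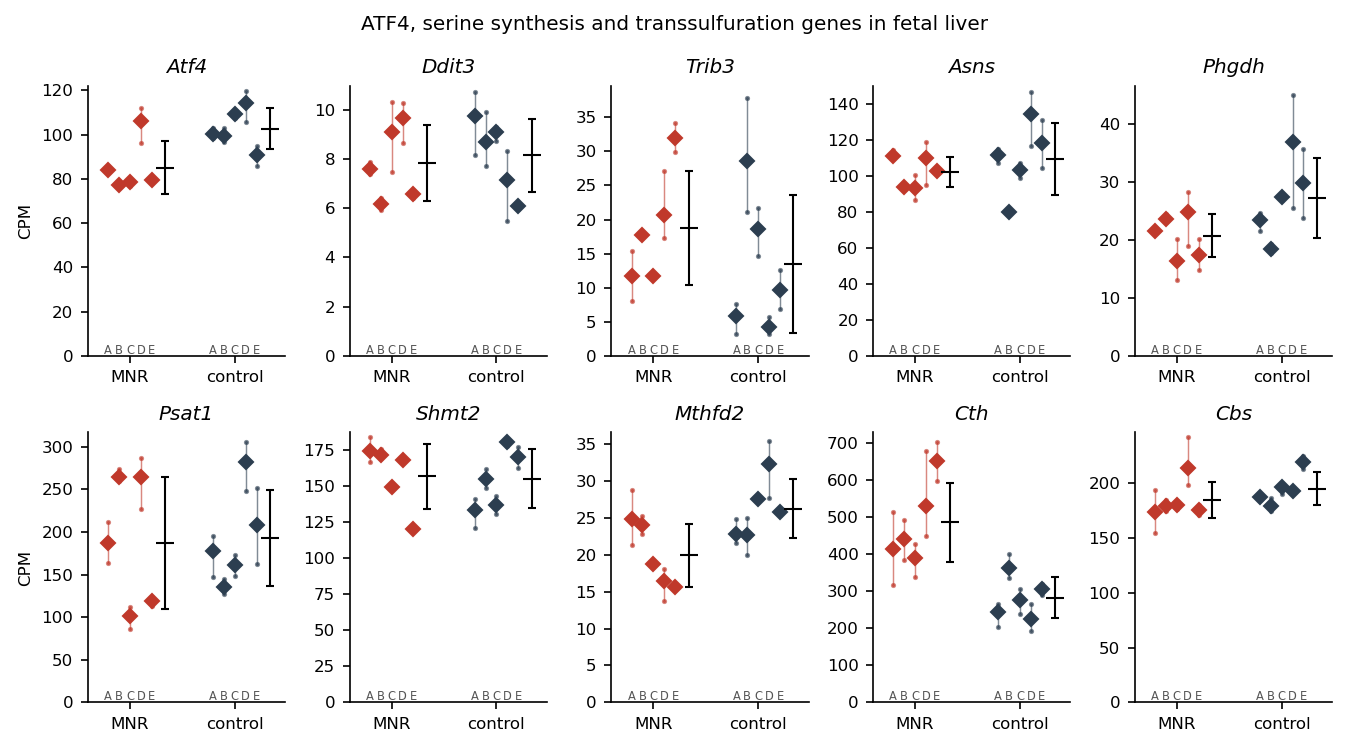
Expression of the 10 genes in each litter, in CPM scaled with TMM on axes that start at 0, with MNR litters left of control litters. Diamonds are litters A to E, small dots joined by a line are their 2 littermates, and the bar at the side is the mean ± SD of 5 litters. The 5 MNR litters lie above all control litters for Cth (389 to 652 against 224 to 363 CPM), 4 of 5 lie below them for Atf4, and the groups overlap in all of the genes but Cth.

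**Figure D2:**
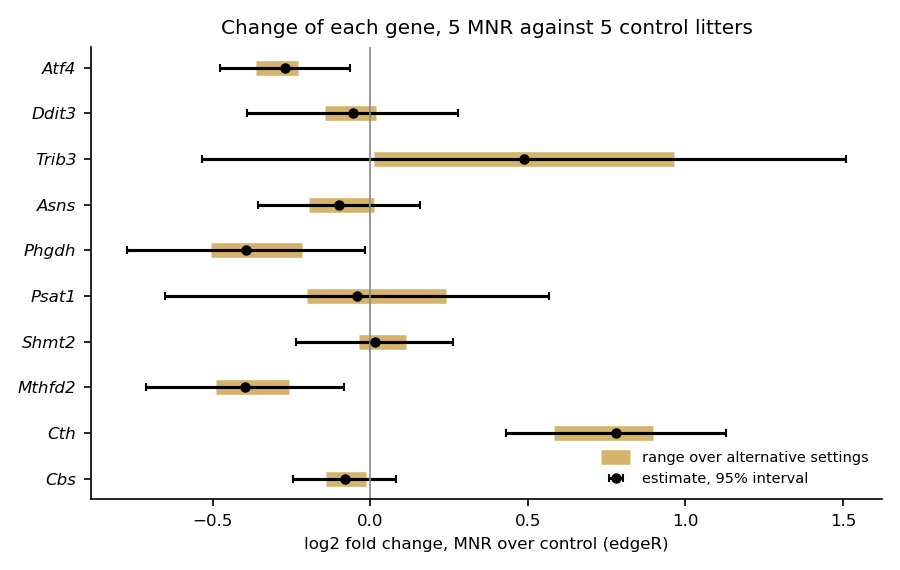
Log2 fold change of each gene, MNR over control, with points and lines for the estimate and its 95% confidence interval from edgeR's quasi-likelihood fit of 5 MNR and 5 control litters, and a broad band for the range over the alternative settings. The interval of Cth lies above 0, those of Atf4, Phgdh and Mthfd2 lie below 0 before adjustment for the number of genes, and none passes the threshold after it.

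Cth encodes cystathionine gamma-lyase, which releases cysteine from cystathionine and is the last step of transsulfuration (mm9 chr3:157557212-157588041, minus strand). MNR litters A to E had 414, 440, 389, 529 and 652 CPM, against 242, 363, 276, 224 and 306 CPM in control litters A to E. The lowest MNR litter, C, lay above the highest control litter, B. By fetus, Cth had a lowest, median and highest value of 317, 470 and 702 CPM in MNR livers, against 192, 278 and 400.5 CPM in control livers, and 7 of 10 MNR fetuses lay above all control fetuses. Cth averaged 485 ± 107 CPM in MNR and 282 ± 54.8 CPM in control litters (SD, n = 5 each), a fold of 1.72 with a 95% interval of 1.35 to 2.19. Its log2 fold change of 0.78 (SE 0.16) had an edgeR adjusted p of 0.0526 and ranked 131 of all genes by p. The value is just outside the threshold, and it passed in 13 of 28 alternative settings, with adjusted p from 0.000257 to 0.339 and a log2 fold change from 0.58 to 0.90. Among these, the adjusted p in edgeR was 0.0175 without control litter B, 0.0474 without MNR litter D and 0.0298 without the fetus highest in pancreatic markers. Without any other single litter it was 0.0621 to 0.128. Without MNR litter D the log2 fold change of Cth was smaller, at 0.75, in a fit that called 512 of all genes, against 117 in the main fit. Over the 20 fetuses, Cth within each group moved with the hepatocyte markers (Pearson r 0.80) and against the erythroid (-0.64) and cycling cell markers (-0.76), as a description over fetuses that share litters. In correlations and covariates, a marker level is the mean of log2 CPM over the list and not the summed CPM. Abundant and scarce genes have the same weight in it, but genes that vary more, such as Tat among the hepatocyte markers, move it more. With the mean hepatocyte marker level as a covariate the log2 fold change of Cth came to 0.58, with an adjusted p of 0.0814 in edgeR, and with the cycling marker level to 0.61, with an adjusted p of 0.0520. The unadjusted p in these edgeR fits was 0.000311 and 6.3e-05, against 0.000392 in the main fit. They called 0 and 2 of all genes.

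Cbs encodes cystathionine beta-synthase, the entry step that joins serine to homocysteine (mm9 chr17:31749568-31774144, minus strand). Cbs had 174, 180, 181, 214 and 176 CPM in MNR litters A to E, against 188, 179, 196, 193 and 220 CPM in control litters A to E. The groups overlapped, with 2 MNR litters below and none above the control range. Cbs averaged 185 ± 16.5 CPM in MNR and 195 ± 15.1 CPM in control litters, a log2 fold change of -0.08 with a 95% interval of -0.24 to 0.08 (edgeR adjusted p 0.588). The log2 fold change of Cth was 0.78 with a 95% interval of 0.43 to 1.13, and a difference between the 2 genes was not tested. In the list of 17 other transsulfuration, cysteine and glutathione genes, 0 passed in edgeR, 6 were higher and 3 lower at an unadjusted p under 0.05, and DESeq2 and limma-voom called 5 each, against 6.62% and 6.17% of all genes in these tools. Their median log2 fold change was 0.00. Those with the smallest p were Got1 (186 ± 55.2 CPM in MNR against 105 ± 19.5 CPM in control litters, log2 fold change 0.83, adjusted p 0.0576), the aspartate aminotransferase of the cytosol, the methionine synthase Mtr (0.35, adjusted p 0.0768), the glycine methyltransferase Gnmt (0.53, adjusted p 0.0904) and the cysteine dioxygenase Cdo1 (0.47, adjusted p 0.115), all in edgeR.

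Atf4 itself had a lower mean in MNR litters (mm9 chr15:80085614-80087970, plus strand). Atf4 had 83.9, 77.2, 78.8, 106 and 79.5 CPM in MNR litters A to E, against 100.1, 99.5, 109, 114 and 90.8 CPM in control litters A to E. All MNR litters but D lay below all control litters, and 8 of 10 MNR fetuses lay below all control fetuses. Atf4 averaged 85.1 ± 12.0 CPM in MNR and 103 ± 9.1 CPM in control litters (SD, n = 5 each), which gave a log2 fold change of -0.27 ± 0.09 (SE) with a 95% interval of -0.48 to -0.07 and an adjusted p of 0.147 in edgeR. Litter D is the exception, and without MNR litter D the value was -0.36 with an adjusted p of 0.0273 in edgeR, in a fit that called 512 of all genes. Without any other single litter the adjusted p of Atf4 was 0.131 to 0.283. Over 28 settings its log2 fold change ran from -0.36 to -0.23 and its adjusted p from 0.012 to 0.481, and it passed in 4. Of 14 regulators of the integrated stress response, 0 passed in edgeR, DESeq2 or limma-voom, and at an unadjusted p under 0.05, 0 were higher and 4 were lower, with a median log2 fold change of -0.08. The 4 were Eif2b2 (-0.20, edgeR adjusted p 0.153), Eif2s1 (-0.15), Eif2b5 (-0.11) and Eif2b4 (-0.18), which encode subunits of eIF2 and its exchange factor eIF2B. The 4 eIF2 kinases had log2 fold changes of 0.05 for Eif2ak1, -0.18 for Eif2ak2, -0.05 for Eif2ak3 and 0.18 for Eif2ak4, the amino acid sensor GCN2 (edgeR adjusted p 0.318).

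Ddit3, encoding the stress-induced factor CHOP, was among the scarcest of the genes (mm9 chr10:126727830-126733344, plus strand). Ddit3 had 7.60, 6.17, 9.11, 9.68 and 6.56 CPM in MNR litters A to E, against 9.74, 8.67, 9.08, 7.15 and 6.08 CPM in control litters A to E. The groups overlapped over almost all of their range, and the log2 fold change was -0.06 with a 95% interval of -0.39 to 0.28 (edgeR adjusted p 0.875). Of its exon bases, 68 overlap the gene Mars on the opposite strand, and the sources used here do not say whether reads were counted by strand.

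Trib3 encodes a pseudokinase that is induced by ATF4 and CHOP and restrains them in turn, and it was the gene whose litters differed the most from each other (mm9 chr2:152163158-152169768, minus strand). Trib3 had 11.8, 17.7, 11.8, 20.7 and 32.0 CPM in MNR litters A to E, against 5.89, 28.6, 18.7, 4.31 and 9.73 CPM in control litters A to E. A control litter, B, was higher than 4 of 5 MNR litters, and control litters A, D and E lay below all MNR litters. Its coefficient of variation over MNR litters was 44.4%, against 75.5% over control litters. Trib3 averaged 18.8 ± 8.34 CPM in MNR and 13.4 ± 10.1 CPM in control litters, a difference of 0.49 on the log2 scale (SE 0.47, 95% interval -0.53 to 1.51, adjusted p 0.600 in edgeR), an interval that holds both signs. Single fetuses reached from 8.11 to 34.2 CPM in MNR and from 3.16 to 37.8 CPM in control livers, while control littermates differed from each other by only 1.48-fold to 2.39-fold. Control litter B, the highest in Trib3 of its group, also holds the fetus with the highest pancreatic markers, and without control litter B the log2 fold change was 0.96 (adjusted p 0.199) in a range over 28 settings of 0.01 to 0.96. Without that fetus alone it was 0.68 (adjusted p 0.380 in edgeR). Its littermate, with 27.5 CPM of pancreatic markers, had 21.1 CPM of Trib3. MNR litters B and E, the latter the highest in Trib3, also hold a fetus over 5 times the pancreatic median (255.9 and 174.8 CPM). Without all such fetuses the log2 fold change of Trib3 was 0.64 (adjusted p 0.420 in edgeR). Within groups, Trib3 had r 0.36 with the mean level of the pancreatic markers over the 20 fetuses. A link between Trib3 and these markers was not tested. Trib3 also moved with the hepatocyte markers within groups (r 0.83) and against the cycling cell markers (r -0.76). With the hepatocyte or the cycling marker level as a covariate, its log2 fold change was 0.01 and 0.08.

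Asns encodes asparagine synthetase, a classic ATF4 target (mm9 chr6:7625169-7643254, minus strand). Asns had 111, 93.9, 93.3, 109.8 and 103 CPM in MNR litters A to E, against 112, 80.0, 103, 134 and 118 CPM in control litters A to E. The MNR litters lay inside the range of the control litters, whose coefficient of variation was 18.3%, against 8.33% in MNR litters. The log2 fold change was -0.10 with a 95% interval of -0.36 to 0.16 (edgeR adjusted p 0.680).

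ATF4 with a C/EBP partner binds a composite element with the core TGATGNAA, and 2 of the 9 genes with a promoter window in RefSeq hold this core: Asns and Trib3. The 2 windows are shown because they carry the element in a pair of genes whose levels moved against each other over fetuses (r -0.66). Within groups, Trib3 and Asns also had opposite signs with the hepatocyte (r 0.83 and -0.53), erythroid (-0.71 and 0.52) and cycling cell markers (-0.76 and 0.49). A link of the element to the levels was not tested. Each window runs from 250 bases before to 50 bases after the start, in RefSeq coordinates of GRCm38.p6 and not of the mm9 build of the counts, at chr6:7693160-7693459 for Asns and chr2:152344011-152344310 for Trib3, both from the minus strand and written 5′ to 3′ with the match in capitals. The core lies 23 to 16 bases before the start in Asns, and in Trib3 it lies 15 to 22 bases after the start on the opposite strand.
Asns: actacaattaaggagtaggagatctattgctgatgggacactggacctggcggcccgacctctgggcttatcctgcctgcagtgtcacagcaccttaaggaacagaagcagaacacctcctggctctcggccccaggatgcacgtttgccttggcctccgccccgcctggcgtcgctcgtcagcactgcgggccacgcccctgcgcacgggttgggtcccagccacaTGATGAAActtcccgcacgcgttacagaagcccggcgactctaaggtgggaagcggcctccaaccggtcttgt
Trib3: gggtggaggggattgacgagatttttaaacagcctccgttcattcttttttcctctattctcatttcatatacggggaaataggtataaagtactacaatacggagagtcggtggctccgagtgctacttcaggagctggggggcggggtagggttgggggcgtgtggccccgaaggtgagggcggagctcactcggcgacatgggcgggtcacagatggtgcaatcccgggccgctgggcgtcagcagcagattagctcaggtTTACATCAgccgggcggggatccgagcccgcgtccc
Searched on both strands, the core is in 4.51% of genes with a window, in 22.2% of the members with one, in 37.5% of 24 further ATF4 partners and targets and in 71.4% of 7 tRNA synthetase genes. It is in 0 of 10 stress response regulators, 0 of 15 serine, glycine and folate genes and 7.69% of 13 transsulfuration, cysteine and glutathione genes. Of the marker lists, the pancreatic exocrine genes reach 21.4%, close to the share of the members, the macrophage genes 16.7% and the neutrophil precursor genes 11.1%, and the other 3 hold none. No window for Cth is given. A match is a description of letters and not a measured site.

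Of 25 further partners and targets tested, 1 rose in edgeR (0.415% of all genes did), Cebpb, which encodes a partner of ATF4, and 6 were higher and 3 lower at an unadjusted p under 0.05, with a median log2 fold change of 0.07. In this list DESeq2 called 4 and limma-voom 3 (6.62% and 6.17% of all genes). Cebpb had 40.4, 36.3, 32.8, 34.8 and 41.9 CPM in MNR litters A to E, against 24.7, 30.2, 25.3, 24.9 and 27.1 CPM in control litters A to E. All MNR litters lay above all control litters. Cebpb rose to 37.2 ± 3.83 CPM in MNR litters, against 26.4 ± 2.29 CPM in control litters, 0.49 higher on the log2 scale (SE 0.08, adjusted p 0.0286 in edgeR), and it passed in 18 of 28 settings with adjusted p from 2.13e-05 to 0.313. The call was lost when control litter A, C, D or E or MNR litter A, B or E was left out, with log2 fold changes of 0.45 to 0.50. It was also lost with the first fetus of each litter only (0.47, adjusted p 0.313 in edgeR) and with the cycling or hepatocyte marker level as a covariate (0.44 for both). The next by p were Ddit4 (1.33, adjusted p 0.0602), an inhibitor of mTORC1, and Stbd1 (0.24, adjusted p 0.0952), Jdp2 (0.47, adjusted p 0.111) and the amino acid transporter gene Slc7a1 (-0.28, adjusted p 0.121), all in edgeR. The tRNA synthetases that ATF4 is known to raise mostly had lower means: 12 of 13 had a negative log2 fold change, as did 8897 of all 17573 genes, their median was -0.16, 0 passed in edgeR, and 6 were lower and 0 higher at an unadjusted p under 0.05, with 4 called by DESeq2 and 4 by limma-voom (6.62% and 6.17% of all genes). Cars, for cysteine, had 23.5 ± 1.95 CPM in MNR and 33.2 ± 4.94 CPM in control litters (-0.50, edgeR adjusted p 0.0515), followed by Aars for alanine (-0.41, adjusted p 0.073), Mars for methionine (-0.29, adjusted p 0.0993) and Wars for tryptophan (-0.22, adjusted p 0.0993).

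**Figure D3:**
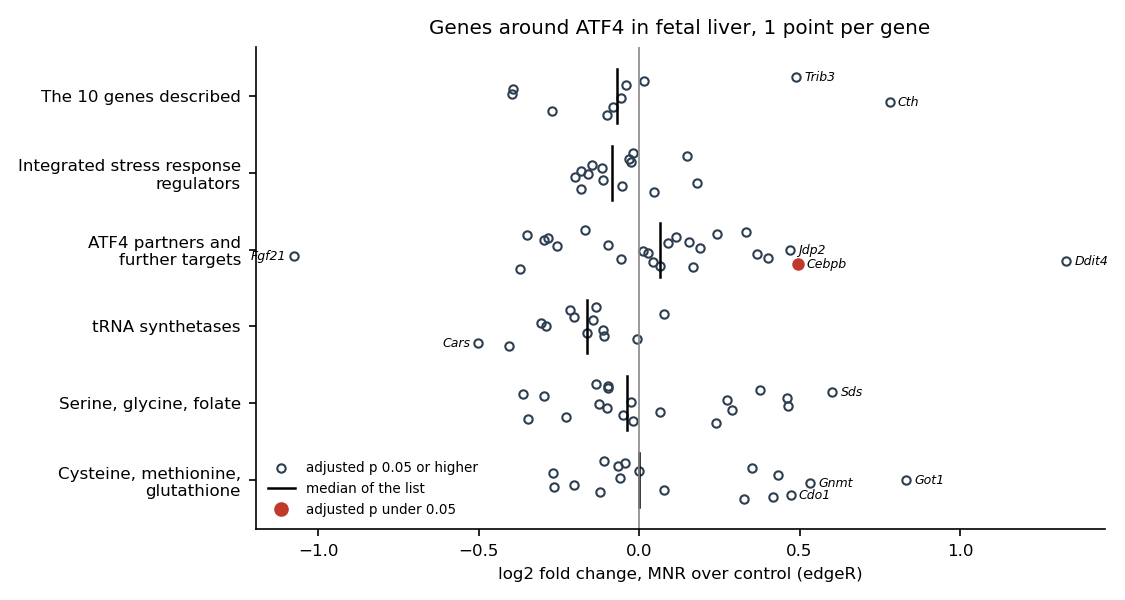
Log2 fold change, MNR over control, of every tested gene of the 5 pathway lists and the 10 members, with 1 point per gene, filled where edgeR's adjusted p was under 0.05, and a line for the median of each list. The tRNA synthetases have 12 of 13 negative values, the stress response regulators 11 of 14, and the ATF4 partners and targets 9 of 25.

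Phgdh, whose product takes the first step of serine synthesis, had a lower mean in MNR litters (mm9 chr3:98117093-98143913, minus strand). Phgdh had 21.5, 23.6, 16.3, 24.9 and 17.4 CPM in MNR litters A to E, against 23.5, 18.4, 27.5, 36.9 and 29.8 CPM in control litters A to E. All 5 MNR litters lay below the control mean, yet control litter B, at 18.4 CPM, kept the groups overlapping and 2 MNR litters alone lay below it. Phgdh averaged 20.7 ± 3.75 CPM in MNR and 27.2 ± 6.92 CPM in control litters, a difference of -0.39 on the log2 scale (SE 0.17, 95% interval -0.77 to -0.02, adjusted p 0.238 in edgeR). The value was -0.26 without control litter D, the highest in Phgdh, and -0.22 with the hepatocyte and -0.26 with the cycling marker level as a covariate. Its adjusted p ran from 0.0765 to 0.649 over 28 settings, and within groups Phgdh had r -0.45 with the hepatocyte markers. Phgdh shares stretches of 50 bases with 8 other annotated genes, most of them pseudogenes, and its level is therefore uncertain. Gm7901 holds 50.6% of the stretches of Phgdh, and its counts came to 40.8% of those of Phgdh. With the counts of these genes added, the sum was 35.9 ± 6.46 CPM in MNR and 45.2 ± 11.1 CPM in control litters, a difference of -0.33 on the log2 scale (adjusted p 0.299 in edgeR).

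Psat1, the aminotransferase of the next step of serine synthesis, varied widely between litters (mm9 chr19:15979168-16021827, minus strand). Psat1 had 187, 265, 101, 265 and 119 CPM in MNR litters A to E, against 177, 136, 161, 282 and 208 CPM in control litters A to E. High and low litters were present in both groups, with MNR litters C and E lowest. The log2 fold change was -0.04 with a 95% interval of -0.65 to 0.57 (edgeR adjusted p 0.949), and the interval reaches from a fold of 0.637 to 1.48. Psph, the phosphatase of the last step, had 12.3 ± 2.25 CPM in MNR and 15.8 ± 2.89 CPM in control litters (-0.36, edgeR adjusted p 0.207).

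Shmt2 makes glycine and a folate-bound carbon unit from serine in mitochondria (mm9 chr10:126954195-126959491, minus strand). Shmt2 had 175, 172, 149.8, 168 and 121 CPM in MNR litters A to E, against 134, 155, 137, 180.5 and 171 CPM in control litters A to E. The groups overlapped, and the log2 fold change was 0.01 with a 95% interval of -0.24 to 0.26 (edgeR adjusted p 0.960).

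Mthfd2, the mitochondrial dehydrogenase and cyclohydrolase that oxidises that carbon unit, had a lower mean in MNR litters (mm9 chr6:83255685-83267600, minus strand). Mthfd2 had 24.8, 24.0, 18.7, 16.5 and 15.6 CPM in MNR litters A to E, against 22.8, 22.6, 27.6, 32.3 and 25.8 CPM in control litters A to E. MNR litters C, D and E lay below all control litters, whereas A and B lay within their range, and 6 of 10 MNR fetuses lay below all control fetuses. Mthfd2 averaged 19.9 ± 4.26 CPM in MNR and 26.2 ± 3.99 CPM in control litters, a difference of -0.40 on the log2 scale (SE 0.14, 95% interval -0.71 to -0.08, adjusted p 0.160 in edgeR). Mthfd2 within groups moved against the hepatocyte markers (r -0.68) and with the cycling cell markers (r 0.61). Its log2 fold change was -0.26 with the hepatocyte and -0.30 with the cycling marker level as a covariate (adjusted p 0.313 and 0.289 in edgeR, in a range over 28 settings of 0.0291 to 0.496). Of 20 other serine, glycine and folate genes, 0 passed in edgeR, 6 were higher and 4 lower at an unadjusted p under 0.05, their median log2 fold change was -0.04, and DESeq2 called 4 and limma-voom 2 (6.62% and 6.17% of all genes). Among those with the smallest p were Amt of the glycine cleavage system (-0.35, edgeR adjusted p 0.0674) and the serine dehydratase genes Sdsl (0.38, adjusted p 0.0767) and Sds (0.60, adjusted p 0.0972).

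Per kilobase of the longest coding transcript, Cth was the most abundant of the genes in both groups, with 267 ± 59.0 CPM per kb in MNR and 156 ± 30.2 in control litters. Cbs, Psat1 and Shmt2 followed at 73.9, 71.6 and 68.9 CPM per kb in MNR and 78.2, 73.7 and 68.2 in control litters, and did not differ from each other beyond their spread. Asns and Atf4 were next at 50.7 and 49.4 CPM per kb in MNR and 54.3 and 59.6 in control litters. Phgdh, Mthfd2, Trib3 and Ddit3 lay lowest, between 8.79 and 10.95 CPM per kb in MNR and between 6.63 and 14.4 in control litters. With union exon length, Cth stayed first and others changed places. The shares of the 44 annotated transcripts within their genes differed by at most 1.23 percentage points between the groups, in Mthfd2-001. Some isoforms of similar length had nearly equal counts, such as Asns-001 and Asns-002, with 37.6% and 37.4% of the Asns counts in MNR livers. How reads were assigned to isoforms is not given.

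Littermates were close to each other in several of the genes. In MNR litters the median ratio of the higher to the lower littermate was 1.03 for Atf4, 1.01 for Shmt2, 1.04 for Asns and 1.06 for Cbs, against 1.06, 1.09, 1.09 and 1.05 in control litters. Trib3 had the widest control littermates, with a median ratio of 1.80, against 1.14 in MNR litters, and its highest control fetus was 12.0-fold above its lowest, against 4.21-fold among MNR fetuses. Cth littermates differed by a median of 1.28-fold in both groups, and by at most 1.61-fold in MNR and 1.38-fold in control litters. Over all fetuses of a group, the highest was 2.21-fold above the lowest in MNR and 2.08-fold in control livers. The 1.72-fold difference of Cth is between groups of summed litters, a measure unlike these ratios between single fetuses. Phgdh littermates differed by up to 1.55-fold in MNR and 1.77-fold in control litters.

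Several of the genes moved together within groups. Over the 20 fetuses, with each group's mean removed and as a description over littermates that are not independent, Trib3 moved with Cth (r 0.81), Asns with Phgdh (0.79), and Phgdh and Shmt2 each with Psat1 (0.71 for both). Mthfd2 moved against Cth (-0.68), and Trib3 against Asns (-0.66). Among 14889 genes of at least 1 CPM, the nearest to Cth were Itih3 (0.89), Stard5 (0.89) and Gnmt (0.86), and Stard5 was itself called, at 0.47 on the log2 scale (adjusted p 0.0467 in edgeR). Among the nearest to Asns were Mars (0.89) and Eif5a (0.89), the nearest to Psat1 were Hkdc1 (0.95), Aqp8 (0.91) and Adh1 (0.90), and those to Trib3 were Sfxn2 (0.92), Scarb2 (0.90) and 4930556M19Rik (0.89). The nearest to Atf4 was Aacs (0.82), for acetoacetyl-CoA synthetase, which fell, at -1.07 on the log2 scale (adjusted p 0.0467 in edgeR), and those to Mthfd2 were Hk1 (0.90), Saal1 (0.86) and Rhag (0.84). The nearest to Shmt2 was Prickle4 (0.85), to Cbs Gjb1 (0.84) and to Ddit3 Mob3c (0.80). Gm9252, among the nearest to Phgdh (0.88), shares sequence with it.

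**Figure D4:**
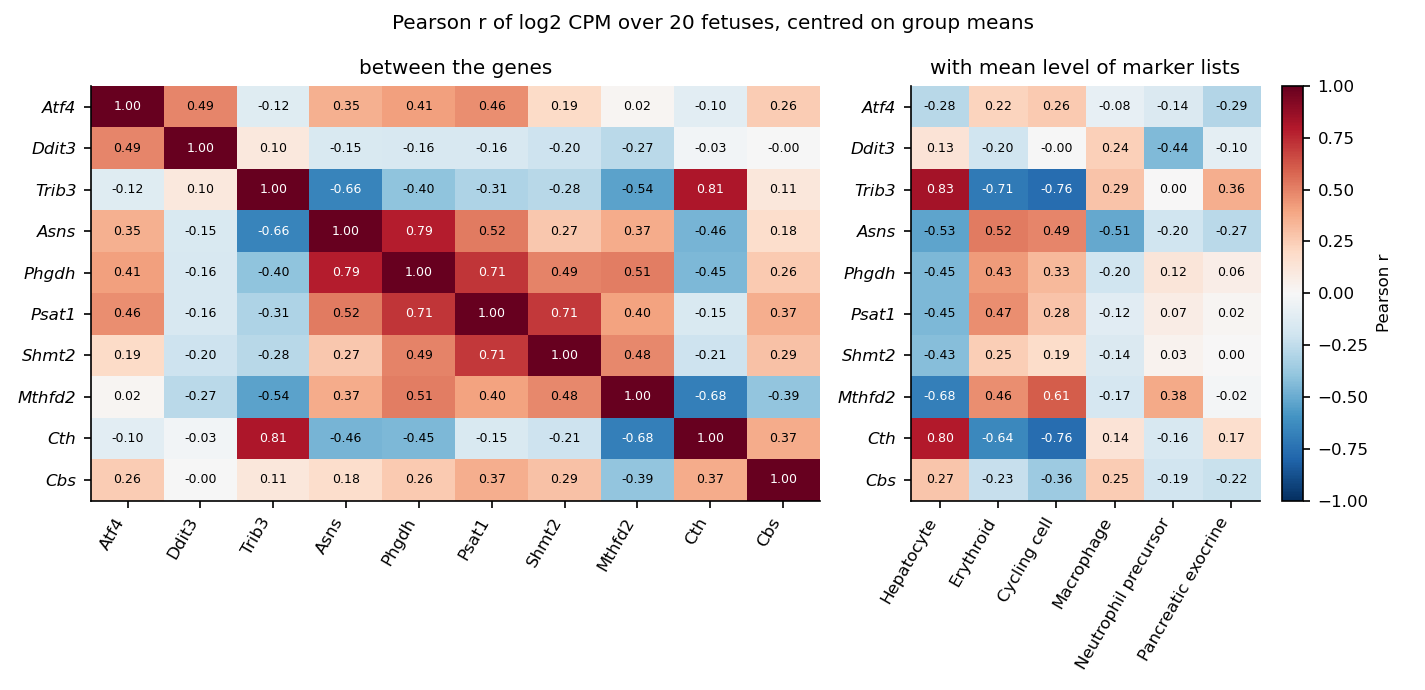
Pearson correlation between the genes, and of each gene with the mean level of the marker lists, over 20 fetuses after removing each group's mean, on a scale from -1 to 1. Trib3 with Cth (0.81) and Asns with Phgdh (0.79) are the highest pairs of genes, and Mthfd2 with Cth (-0.68) is the lowest. With the marker lists, Trib3 reaches 0.83 for hepatocytes and -0.76 for cycling cells.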

How the data were processed

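The deposited values are whole-number counts per transcript, 1 table per fetus, not normalised by the authors. The submitters' processing notes name build mm9 with the tools Bowtie2, FastQC, edgeR and DESeq2; the sources used here do not give versions, the counting tool, or its use of strand and of reads that match several places. Frozen tissue was ground and RNA isolated with a column and DNase, per the labels' protocols, and libraries keep strand. No batch or date is given. A gene table of the whole series was not used here.

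Transcript counts were summed to genes with GENCODE M1 (NCBIM37, the assembly of mm9); transcripts in no gene held 0.0788% to 0.154% of counts and were left out. Counts of the 2 littermates were summed, low genes removed (filterByExpr, minimum count 10), and TMM-scaled values tested, two-sided, in edgeR 4.0.16 (quasi-likelihood, R 4.3.3) on 5 MNR against 5 control litters, with Benjamini-Hochberg adjustment over all genes and a threshold of 0.05. Intervals are 95% intervals of the fit. Correlations use log2 CPM with a prior count of 2. The procedure was tested on simulated data. Alternatives used DESeq2 1.42.0, limma 3.58.1, other scalings, filters, covariates and libraries, and left out each litter.

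The members and lists were chosen with earlier results of these data known. Named genes are all members, list genes past the threshold, up to 4 of smallest p per list (the 4 kinases and Psph always), and up to 3 nearest genes per member; some are not reported here. Promoter windows come from RefSeq GRCm38.p6; 9 of 10 members matched. Litters share letters across groups, but the letters name different dams, so letters were not used as pairs in the main fit. Correlations of deviations between litters of the same letter ran from -0.00928 to 0.184. Each of the 10 litters was also set against the 5 litters of the other group, and 4 correlated best with their own letter. Whether litters of the same letter share more than others was not tested.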

Additional observations from a re-analysis of the deposited data

Results flagged for a closer look

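MNR litter D stood apart from the other 4 MNR litters in both Atf4 and Cbs. It had 106.1 CPM of Atf4, with 83.9 CPM in the nearest MNR litter, and 213.7 CPM of Cbs, with 181 CPM in the nearest. The gap divided by the range was 0.766 for Atf4 and 0.824 for Cbs, above the critical value of 0.71 for 5 litters. Of 20 groups of litters compared in this way, about 1 in 20 would pass by chance. Without MNR litter D the log2 fold change of Atf4 was -0.36.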

How the results depend on the processing

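Over 28 alternatives, of which 3 were chosen after seeing the data, the signs of Atf4, Trib3, Phgdh, Mthfd2, Cth and Cbs held in all 28, and those of Ddit3, Asns, Psat1 and Shmt2 in 25, 26, 21 and 22. Of the 10 members, the number past the threshold was 1 with DESeq2, library size only, no filter, a minimum count of 50, the erythroid covariate and the removal of fetuses above 10 or, added later, 5 times the median pancreatic marker level. It was 3 with limma-voom (Atf4, Mthfd2 and Cth) and with the 20 fetuses as separate libraries, which treats littermates as independent, and 2 with the second fetus only. Leaving out each litter gave 0 to 2. The number of all genes called, 117, was 1163 with DESeq2, 1084 with limma-voom, 2247 with 20 fetuses, 499 with the second fetus only, 178 with upper-quartile scaling, 296 and 215 without the fetuses above 10 and 5 times the pancreatic median, 2 with the cycling covariate, and 0 with the first fetus only (1699 at an unadjusted p under 0.05 in edgeR) or, added later, the hepatocyte covariate (3011). Leaving out each litter gave 0 to 843. Upper-quartile scaling shifted the median log2 fold change of all genes to -0.03 and 38.2% of its calls were higher, against 62.4%. With the litter letter as a replicate block, 232 genes and 1 member, Cth, passed. Letters name different dams, and 4 of 10 litters correlated best with their own letter among the 5 litters of the other group. The causes were not tested. Depth limits the scarce genes: Ddit3 had 99 to 287 counts per fetus in MNR and 112 to 278 in control livers, and Trib3 160 to 639 and 50 to 641.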
